A study of Danio rerio with 3 samples.

Results

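Wide stretches of H3K27ac outside H3K27me3 were examined in the posterior trunk of wild type zebrafish embryos at 16 hpf (hours post fertilisation). A wide interval was a stretch of at least 1000 bp that lay under a called H3K27ac region in both H3K27ac libraries and touched no H3K27me3 region. Intervals separated by at most 12.5 kb were stitched into groups, and an interval was kept if its group held 4 or fewer. This left 934 wide intervals out of 27647 H3K27ac intervals found in both replicates, or 3.38% of the intervals and 9.49% of their bp. They made up 87.5% of all 1068 intervals of at least 1000 bp. The comparison set held the 21430 narrower intervals under the same limits on group size and H3K27me3. Members were thus chosen by measured values of these same lists, namely width, group size and absence of H3K27me3, so those properties are given as description and were not tested.

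H3K27ac is an acetyl group on lysine 27 of histone H3 that sits on nucleosomes beside active promoters and enhancers. H3K27me3 is a methylation of the same lysine, written by Polycomb repressive complex 2 on silenced genes, and 1 lysine cannot carry both. Wide H3K27ac is usually discussed in connection with promoters of strongly transcribed genes and with clustered enhancers that act together. The posterior trunk at this stage holds somites, neural tube, notochord, and the forming pronephric ducts, whose hind end will open at the cloaca, the organ named in the study's title.

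CUT&RUN, which cuts out DNA around antibody-bound chromatin with a tethered nuclease, gave 2 H3K27ac libraries (Abcam antibody) and 1 H3K27me3 library (Merck Millipore antibody), with cells opened by digitonin. All 3 came from the same stage, tissue and genotype. Nothing in the labels ties the 2 H3K27ac replicates to different clutches, and their spread may therefore be purely technical. No read totals were at hand. Genome-wide backgrounds worked out from the peak lists put H3K27ac replicate 1 at 73.2% and H3K27me3 at 33.6% of the depth of H3K27ac replicate 2, if the same genome size was used. The lists held 45534, 60427 and 17121 regions in H3K27ac replicate 1, H3K27ac replicate 2 and H3K27me3. In whole tissue, more cells with the mark and more of the mark per cell cannot be told apart. Positions are on danRer11, and intervals carry no gene names, since danRer11 gene models were not used.

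The wide intervals were mostly just past the limit. Their median width was 1140.5 bp, with quartiles of 1055 and 1258 bp and a maximum of 1965 bp. Of them, 596 (63.8%) measured 1000 to 1199 bp, 246 (26.3%) measured 1200 to 1399 bp and 92 (9.85%) were wider. An interval is the part shared by a region of each replicate, and the regions themselves had median widths of 1201.5 bp in replicate 1 and 1279 bp in replicate 2. The region of the deeper replicate 2 was the wider of the pair in 637 of 934 intervals (68.2%, exact 95% interval 65.1 to 71.2%). The widths of the paired regions had a Spearman rho of 0.41 across the 934 intervals, which share libraries and are not independent. The rule leaves no region under 1000 bp in either replicate, so this rho does not measure agreement of widths over all intervals.

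**Figure D1:**
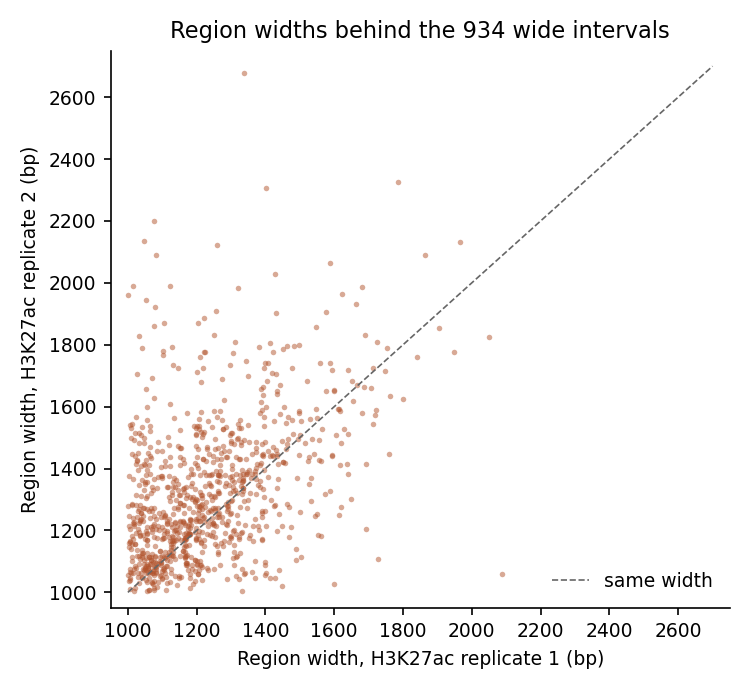
Width in bp of the region of H3K27ac replicate 1 (x axis) and of replicate 2 (y axis) behind each of the 934 wide intervals, 1 point per interval; the dashed line marks equal widths. More points lie above the line (637) than below it (292), and the widest region, 2677 bp, was called in replicate 2.

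Wide regions were called in each replicate, but in different numbers. Replicate 1 held 1588 regions of at least 1000 bp (3.49% of its list) and replicate 2 held 3340 (5.53%). Nearly all of them met some region of the other replicate, 1587 of 1588 (99.9%) and 3293 of 3340 (98.6%). Among regions under 1000 bp that was so for 57.8% in replicate 1 and 39.7% in replicate 2. Fewer met a region that was also at least 1000 bp wide, 76.8% for replicate 1 and 36.5% for replicate 2. Applied to single lists, the same limits gave 1294 wide regions without H3K27ac replicate 2 and 2339 without H3K27ac replicate 1.

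Most wide intervals were made of several summits, the local maxima that the peak caller reports inside a region. Replicate 1 had a median of 3 summits per wide region (range 1 to 7) and replicate 2 a median of 4 (range 1 to 10), or 3.5 ± 0.707 (SD, n = 2). Narrower intervals had a median of 1 in each. At least 3 summits were called in 746 of the 934 wide regions in replicate 1 (79.9%), where 8.88% of all intervals under the same limits had them. In replicate 2 it was 819 (87.7%), against 19.7%. A wider region has more room for summits, and per kb the numbers were close. Regions behind wide intervals had 2.67 and 2.77 summits per kb in replicates 1 and 2, and those behind narrower intervals had 2.89 and 2.82. The latter are whole regions, up to 2088 bp wide in replicate 1 and 2677 bp in replicate 2. Some of them were thus themselves at least 1000 bp wide. A wide region with a single summit was rare, at 14 of 934 in replicate 1 and 6 of 934 in replicate 2, and 0 of 934 had a single summit in both. The replicates gave the same number of summits in 324 intervals (34.7%), and replicate 2 gave more in 417 (44.6%).

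Neighbouring summits inside wide regions lay a median of 291 bp apart in replicate 1 (quartiles 243 and 382 bp, 2134 distances) and 277.5 bp apart in replicate 2 (quartiles 241 and 353 bp, 2492 distances). In regions with several summits behind narrower intervals, some of them also at least 1000 bp wide, the medians were 264 and 268 bp. Distances under 200 bp were few in both replicates, with a 5th percentile of 197 and 195 bp in the wide regions. The tags were 200 bp long, which limits how closely 2 summits can be told apart. Summits of replicate 1 in wide regions lay a median of 29 bp from the nearest summit of replicate 2 (3068 summits), and 79.5% had one within 100 bp. With summits of replicate 2 this closely spaced, many positions in a wide region lie within 100 bp of one, so the share is not a measure of agreement. The strongest summits of both replicates lay within 100 bp of each other in 49.8% of wide intervals and 55.5% of narrower ones.

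In wide regions with 3 to 5 summits, the strongest was an inner one more often than an even split over the summits would give. Among wide regions with 3 summits the middle one was strongest in 168 of 373 in replicate 1 (45.0%, exact 95% interval 39.9 to 50.2%) and in 196 of 303 in replicate 2 (64.7%, exact 95% interval 59.0 to 70.1%), ties left out. An even split would give 33.3%. The median pileups of the 3 summits in order along the chromosome were 23, 26 and 25 tags in replicate 1 and 37, 44 and 36 tags in replicate 2. This shape was shared by regions with 3 summits behind narrower intervals, where the middle one was strongest in 51.2 and 63.5%. Those are whole regions, and some regions behind narrower intervals were themselves at least 1000 bp wide. The side summits of wide regions were not faint. The second strongest summit reached a median of 84.6% of the strongest in replicate 1 and 86.8% in replicate 2.

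Wide intervals had tall summits. Pileup is the number of tags over a summit, worked out from the authors' deposited fold and p. The highest in a region had a median of 32 tags in replicate 1 (range 13 to 62) and 49 in replicate 2 (range 19 to 105). In narrower intervals the medians were 16 and 22 tags. Divided by the genome-wide background of each library, which is called the summit level here, the medians were 39.7 and 44.5 in wide intervals and 19.8 and 20.0 in narrower ones. The ratio of medians was 2.11 ± 0.161 (SD, n = 2), a difference larger than that between the replicates. The sets overlapped. In replicate 1, 98.5% of wide intervals exceeded the median of the narrower ones, and 8.24% of the narrower ones reached the median of the wide ones. In replicate 2 these shares were 99.7 and 6.80%. Width was called from the same tags as the level, so the ratio describes the choice and was not tested. Taken from single lists, which also hold regions that the other replicate lacks, the ratio was 2.73 in replicate 1 and 3.82 in replicate 2.

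The level was higher in replicate 2 at 73.8% of wide intervals, with a median log2 difference of 0.19 (SD 0.33 across 934 intervals). At narrower intervals the median was -0.03 (SD 0.49), and replicate 2 was higher at 46.9%. Narrower intervals in the highest quintile of level leaned the same way as the wide ones, with a median of 0.11 and replicate 2 higher at 60.8%. Levels of the replicates had a Spearman rho of 0.65 across the wide intervals.

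The 10-kb windows around wide intervals, own tags included, held more tags than those around narrower ones when intervals of all levels were pooled. The 10-kb tag density is the number of tags in the 10 kb around a summit over the number that the genome-wide background gives, and the highest in a region was used. Its median was 6.13 in replicate 1 and 6.60 in replicate 2 for wide intervals, from 247 and 363 tags. It was 3.77 and 3.80 for narrower ones, a ratio of 1.68 ± 0.0791 (SD, n = 2). Taken from single lists, with their other regions, the ratio was 2.17 in replicate 1 and 2.65 in replicate 2. A wide interval supplies part of its own window. This part was worked out in the window of the tallest summit, which need not be the window of highest density. Adding up summits at least 200 bp apart, which share no tag, gave at least 33.0 and 38.2% of that window's tags to the wide region itself. For narrower intervals it was at least 11.9 and 13.7%. With those tags taken away the density of that window was at most 3.98 in both replicates for wide intervals. For narrower ones it was at most 3.18 and 3.03. These are upper bounds and do not order the true values.

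Among intervals of high summit level this relation turned round. In the highest quintile of level the 779 wide intervals had densities of 6.52 and 7.01 in replicates 1 and 2, below the 7.16 and 7.49 of the 3692 narrower ones. The ratio was 0.924 ± 0.0179 (SD, n = 2). Levels within this quintile were still not the same, at 40.9 and 47.2 for wide intervals and 38.5 and 40.9 for narrower ones. With own tags taken away, densities in the windows of the tallest summits were at most 4.24 and 4.25 for the wide intervals. For the narrower ones they were at most 5.90 and 5.54, and these bounds do not order the true values. The turn depended on how tall intervals were picked. In the highest quintile of margin, the summit pileup over the pileup needed for a call, densities were 5.90 and 6.38 for wide and 4.03 and 4.16 for narrower intervals. The pileup needed is worked out from the 10-kb density itself, so picking by margin favours windows of low density. Densities in that quintile are therefore shaped by the choice.

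**Figure D2:**
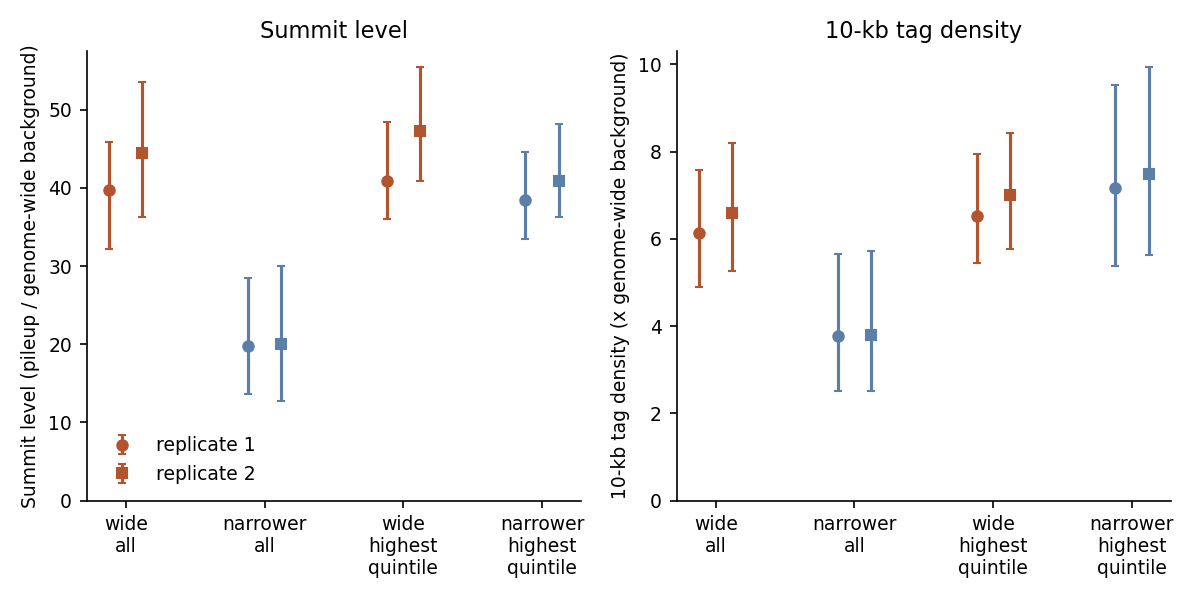
Left, summit level (highest pileup over the genome-wide background); right, 10-kb tag density (multiples of that background). Points are medians and bars quartiles over intervals, circles for H3K27ac replicate 1 and squares for replicate 2, for wide and narrower intervals at all levels and in the highest quintile of level. Wide intervals are higher on both axes over all levels, while in the highest quintile their density (6.52 and 7.01) is below that of narrower intervals (7.16 and 7.49).

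Width and level rose together, but a high level did not always come with a width of 1000 bp. No interval of at least 1000 bp was found in the 3 lowest deciles of level, which allows up to 0.160 to 0.166% by the exact interval. The share was 4.16% in the eighth decile, 11% in the ninth and 23.9% (533 of 2232, exact 95% interval 22.1 to 25.7%) in the highest, where 4.18% of all intervals under the same limits were wide. Most intervals with the tallest summits were thus narrower than 1000 bp, and the median width in the highest decile was 740.5 bp. Level is that of the whole region, while an interval may be only a part of it. In the highest quintile of level, 23.7% of narrower and 7.83% of wide intervals shared a region with another interval in at least 1 replicate. Regions behind those narrower intervals had upper quartiles of width of 838 bp in replicate 1 and 1080 bp in replicate 2. Within the wide intervals, width and mean level had a Spearman rho of 0.21 (934 intervals). The cut at 1000 bp narrows the range of widths, so this rho does not measure the relation over all intervals. There the median width was 200 bp in the lowest decile of level.

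**Figure D3:**
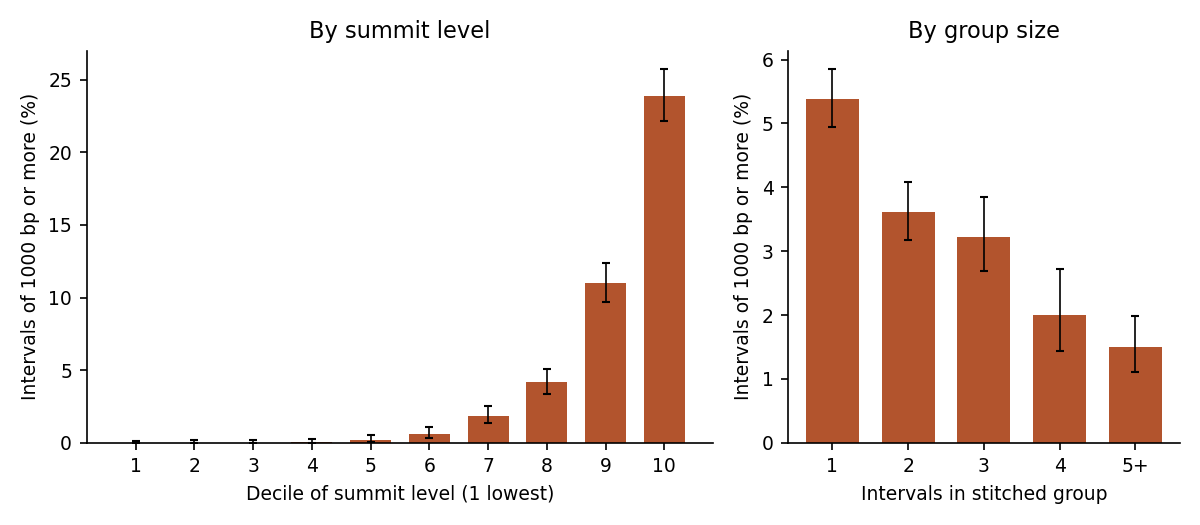
Share of intervals that are at least 1000 bp wide, in percent with exact 95% intervals, by decile of summit level (left) and by the number of intervals in the stitched group (right; 5+ stands for 5 or more). The share climbs to 23.9% in the highest decile and falls from 5.38% for lone intervals to 1.5% in groups of 5 or more.

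Wide intervals lay alone more often than narrower ones. A lone interval, with no other within 12.5 kb, was the case for 526 of 934 wide intervals (56.3%, exact 95% interval 53.1 to 59.5%), where 43.7% of all intervals under the same limits were alone. Another 247 lay in pairs, 121 in groups of 3 and 40 in groups of 4. Read the other way, 5.38% of lone intervals were wide, 3.61% of those in pairs, 3.23% in groups of 3, 2.00% in groups of 4 and 1.5% in the larger groups that the rule leaves out. The median gap to the nearest other interval was 14.9 kb for wide intervals (quartiles 7.39 and 29.2 kb) and 9.71 kb for narrower ones.

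The difference was widest in the nearest 5 kb. Another interval under 5 kb away was found for 151 of 934 wide intervals (16.2%), against 33.7% of all intervals under the same limits. In the highest quintile of level a neighbour 1 to 5 kb away was found for 7.70% of wide intervals (exact 95% interval 5.93 to 9.80%) and 25.5% of narrower ones (exact 95% interval 24.1 to 26.9%). At 5 to 12.5 kb the shares were 33.2 and 37.4%. At 12.5 to 50 kb they were 81.8% (exact 95% interval 78.9 to 84.4%) and 87.1% (exact 95% interval 85.9 to 88.1%), a smaller difference in the same direction. Single lists showed the contrast at 1 to 5 kb too. In the highest quintile of pileup, wide regions had another region 1 to 5 kb away in 9.88% of cases in replicate 1 and 12.1% in replicate 2, against 28.9 and 32.1% for narrower regions. At 5 to 12.5 kb the shares were 45.9 against 44.6% in replicate 1 and 48.5 against 49.0% in replicate 2. Under 1 kb, in these lists that were not intersected, they were 10.8 against 27.1% in replicate 1 and 9.36 against 24.8% in replicate 2.

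A neighbour closer than 1 kb was found for 89 wide intervals (9.53%) and for 22.2% of narrower ones. In 70 of the 89 the pair shared 1 region in at least 1 replicate, which the other replicate had as separate regions. Among narrower intervals with such a neighbour this was so for 70.9%. Taking an interval as lone when its whole group was joined by gaps under 1 kb raised the lone share. It was then 62.3% for wide intervals and 57.1% for narrower ones, with each interval still counted separately.

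The threshold of the peak caller differed between the sets, in an order that depended on the intervals taken. MACS2 asks for more pileup where the 10-kb window holds more tags, and a neighbour within 5 kb of a summit falls in that window. Over all levels, a call needed a median pileup of 13 tags in replicate 1 and 17 in replicate 2 for wide intervals. For narrower ones it was 10 and 12. In the highest quintile of level the order was the other way, at 14 and 17 for wide and 15 and 18 for narrower intervals. The margin in that quintile was 2.44 and 3.0 for the wide and 2.08 and 2.55 for the narrower. The part of the threshold in the spacing was not tested. Among the intervals in the highest quintile of margin instead of level, a neighbour 1 to 5 kb away was found for 4.76% of 715 wide intervals (exact 95% interval 3.32 to 6.58%) and 7.69% of 3758 narrower ones (exact 95% interval 6.86 to 8.59%). The sets lay closer there, but picking by margin itself favours windows with few tags, so these shares are shaped by the choice. At 5 to 12.5 kb the shares were 31.2 and 29.3%. Under 1 kb the shares were 7.83% of wide and 21.2% of narrower intervals. Pieces of a region that 1 replicate splits can fall in this class, are narrower than that region and carry its pileup in the other replicate. The part of such pieces in that contrast was not counted for this quintile and was not tested. The wide and narrower sets still differed in level, at 40.9 and 46.3 for wide and 31.0 and 33.6 for narrower intervals in replicates 1 and 2. The share of wide intervals was lower where the nearest interval was close, and from 1 kb it rose gradually across 5 kb. In the highest quintile of level it was 6.26% under 1 kb, 2.27% (6 of 264) at 1 to 2 kb, 4.98% at 2 to 3 kb, 8.90% at 3 to 4 kb and 15.4% at 4 to 5 kb. It was 18.3% at 5 to 6 kb, 28.6% at 12.5 to 50 kb and 33.1% farther out. By margin it was 6.57% under 1 kb, 4.71% at 1 to 2 kb (85 intervals), 11.5% at 2 to 3 kb, 13.6% at 3 to 4 kb and 16% at 4 to 5 kb. From 5 kb outwards it was 17.1 to 21.1% in each class.

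**Figure D4:**
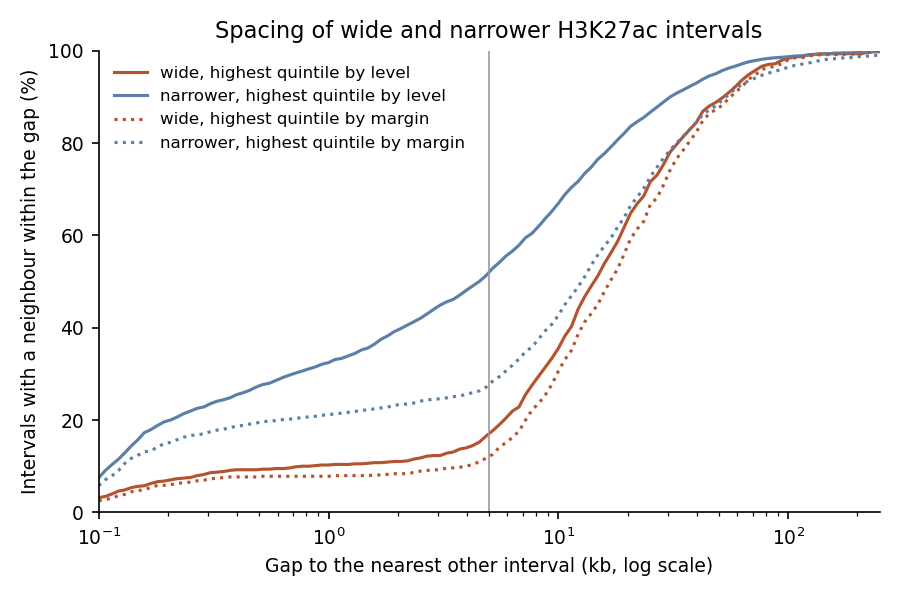
Percent of intervals whose nearest other H3K27ac interval lies within the gap on the x axis (kb, log scale), for wide (orange) and narrower (blue) intervals in the highest quintile by summit level (solid) and by margin over the calling threshold (dotted); the vertical line marks 5 kb, the reach of the 10-kb window to each side. By level, 17.3% of wide and 52.1% of narrower intervals have a neighbour under 5 kb away, and by margin 12.3 and 27.8%. Under 1 kb, where pieces of a region split in 1 replicate are counted, the shares are 10.3 and 32.4% by level and 7.83 and 21.2% by margin.

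In pairs, the partner of a wide interval had a larger median width and pileup than intervals of pairs without one. In pairs with a wide interval the narrower partner had a median width of 434 bp and pileups of 20 and 31 tags in replicates 1 and 2 (227 partners). Intervals of pairs without a wide member measured 359 bp with pileups of 17 and 24 tags. Pileup is the highest of the whole region, so a partner that shares a region with the wide interval carries that region's pileup. The pairs also differed in spacing, with a median gap of 6780 bp for the partners and 2818.5 bp for the others. The part of either in the difference was not tested. Groups with 2 wide intervals numbered 10 of 3680 pairs, 6 of 1353 groups of 3 and 2 of 535 groups of 4. Another 252 pairs, 118 groups of 3 and 38 groups of 4 held 1. Intervals that touch H3K27me3 are counted here. Without those, 3.61% of intervals in pairs, 3.23% in groups of 3 and 2.00% in groups of 4 were wide. No expected count was worked out, so these numbers do not tell whether wide intervals occur together. Along the chromosome, a wide interval followed another wide one about as often as it followed a narrower one, within the counting error. The next interval under the same limits was wide after 49 of 930 wide intervals (5.27%, exact 95% interval 3.92 to 6.91%) and after 4.13% of narrower ones.

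Overlap with H3K27me3 was as common among wide intervals as among narrower ones, before the rule removed it. In groups of 4 or fewer it was 82 of 1016 intervals of at least 1000 bp (8.07%, exact 95% interval 6.47 to 9.92%) and 7.59% of narrower ones, where 7.61% of all had it. A share that close to that of all intervals is not a result about the wide ones. It did not climb with width, since intervals from 400 to under 600 bp had 8.25% and those from 800 to under 1000 bp 6.78%. The 82 that were left out had summit levels of 38.5 and 45.4 in replicates 1 and 2 and a median width of 1145.5 bp, close to the values of the 934. The 48 wide intervals in larger groups without H3K27me3 had levels of 42.2 and 49.1 and densities of 7.02 and 7.84.

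H3K27me3 also lay close to wide intervals less often than to narrower ones. A region of H3K27me3 within 5 kb, without overlap, was found for 67 of 934 wide intervals (7.17%, exact 95% interval 5.60 to 9.02%) and 14.2% of narrower ones (exact 95% interval 13.8 to 14.7%). In the highest quintile of level the shares were 7.45% (exact 95% interval 5.70 to 9.52%) and 13.8% (exact 95% interval 12.7 to 14.9%). At 12.5 to 50 kb the order was the other way, with 40.6% of wide and 34.7% of narrower intervals in that quintile. The median distance to the nearest H3K27me3 region was 45.7 kb for wide intervals and 36.0 kb for narrower ones. H3K27me3 was measured in 1 library, so these distances have no replicate, and absence of H3K27me3 means that no region was called at its depth.

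The share of wide intervals varied between chromosomes. It was highest on chromosome 2, at 72 of 1006 (7.16%, exact 95% interval 5.64 to 8.93%), and lowest on chromosome 22, at 12 of 747 (1.61%, exact 95% interval 0.833 to 2.79%). The other 23 chromosomes lay between 2.81% on chromosome 9 and 5.65% on chromosome 6. On chromosome 2 the wide intervals were spread over its length, with 6 to 18 in each 10 Mb. Replicate 1 alone had 5.25% of its regions on chromosome 2 at 1000 bp or more, the highest of its list. In replicate 2 that share was 6.12%, below the 7.46% of chromosome 3. Chromosome 22 had 2.57% in replicate 1 and 5.08% in replicate 2, where chromosomes 9 and 4 were the lowest with 2.37 and 4.18%. The ends of the order thus depended on the replicate. Over the 25 chromosomes the replicates' shares had a Spearman rho of 0.79.

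**Figure D5:**
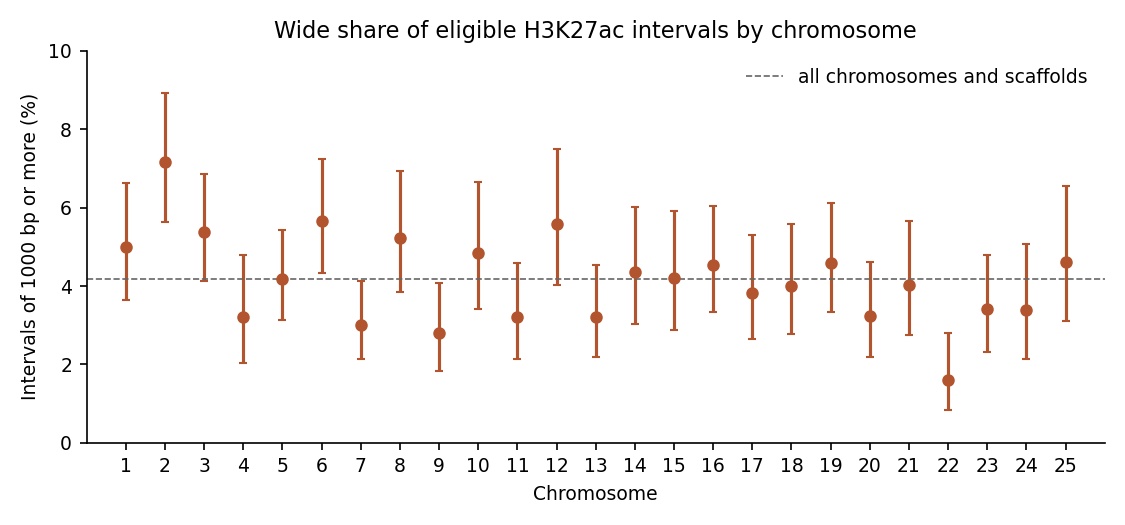
Share of H3K27ac intervals that are at least 1000 bp wide, in percent with exact 95% intervals, for each chromosome, among intervals in groups of 4 or fewer without H3K27me3; the dashed line is the share over all sequences, 4.18%. Chromosome 2 lies highest at 7.16% and chromosome 22 lowest at 1.61%.

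The 10 widest intervals measured 1696 to 1965 bp. The widest was chr1:8693712-8695676, from regions of 1965 bp in replicate 1 and 2132 bp in replicate 2. The region of replicate 1 had 5 summits, with pileups of 22, 41, 42, 22 and 29 tags. The region of replicate 2 had 7, with 32, 41, 37, 40, 43, 45 and 37, the last of them just outside the interval. The level of this interval was 52.1 in replicate 1 and 40.9 in replicate 2, the reverse of the order of the replicates at most wide intervals. The next was chr2:12847283-12849108, alone in its group, with its nearest neighbour 34.6 kb away and levels of 42.2 and 39.1. The third was chr5:24243863-24245677, which had 7 summits in each replicate and levels of 67.0 and 76.3. An H3K27me3 region lay 3.29 kb from it. Of the 10 widest, 6 were alone in their group, and mean levels ran from 40.6 to 71.6.

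The 10 intervals with the highest mean level reached 71.6 to 78.7, and each was higher in replicate 2. The highest was chr3:52999784-53001371, 1588 bp wide and alone in its group, with 61 tags in replicate 1 and 90 in replicate 2, or levels of 75.7 and 81.8. Its 5 summits were placed alike by both replicates, with pileups of 47, 61, 60, 23 and 22 tags and of 58, 87, 90, 44 and 40. The 3 summits at lower coordinates were thus taller than the other 2 in each replicate. The second, chr2:23038954-23040277, showed the widest disagreement of the 10, with levels of 53.3 and 95.4 from 43 and 105 tags. The third, chr15:20124200-20125313, had levels of 65.7 and 81.8. The highest densities among the 10, own tags included, were 15.8 and 18.0 at chr22:10415799-10417088, in a group of 3 with a neighbour 4.67 kb away. chr5:24243863-24245677 was the only interval named both for width and for level, and it was also among the 5 with most summits.

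By number of summits over both replicates, chr3:27607620-27608956, with 4 in replicate 1 and 10 in replicate 2, tied with chr5:24243863-24245677, with 7 in each. The region of chr3:27607620-27608956 measured 1337 bp in replicate 1 and 2677 bp in replicate 2, and 6 of the 10 summits of replicate 2 lay inside the interval itself. Another interval lay 364 bp away. The pileups of the 4 summits in replicate 1 were 27, 28, 24 and 30 tags, and those of the 10 in replicate 2 ran from 33 to 59. chr18:41233189-41234972 came next with 6 and 7. Last of the 5 as listed was chr13:18507441-18509057 with 7 and 5, alone in its group and with an H3K27me3 region 1.43 kb away. It was tied with intervals outside the 5, among them chr13:24908277-24909839 and chr6:26894129-26895875, each with 6 and 6.

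The 5 most isolated intervals lay 208 to 259 kb from any other H3K27ac found in both replicates. They were of modest width, 1037 to 1204 bp, with densities of 5.13 to 6.69. The most isolated was chr12:16087112-16088304, with levels of 28.5 in replicate 1 and 44.5 in replicate 2, and an H3K27me3 region 2.19 kb away. chr24:12133824-12135022, 225 kb from its neighbour, had levels of 33.5 and 44.5 and H3K27me3 at 2.52 kb. At chr18:36065705-36066741 the nearest H3K27me3 region was 565 kb away and levels were 39.7 and 50.9. chr2:47680755-47681846 had the highest levels of these 5, 70.7 and 54.5. At the width limit, 5 intervals of 1000 bp had mean levels of 25.5 to 50.8 and 5 that were 1 bp narrower had 27 to 60.3, so their levels overlapped.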

How the data were processed

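CUT&RUN peak lists of 3 libraries were used as deposited, 1 list per library. Build danRer11 and 6 tools appear in the submitters' processing notes without stated settings: MACS2 2.2.7.1, bedtools 2.30.0, Bowtie2 2.4.5, cutadapt 4.1, Picard 3.0.0 and SAMtools 1.16.1. Each deposited line gives a fold, which is a ratio of pileup to local background, a p-value and q-value as −log10, a score (the authors' −log10 q times 10) and a summit position. No deposited −log10 q was below 1.30. Fold and p together gave 1 solution for pileup and background on every line (tolerance 0.001 on the −log10 scale), reading background above the fixed genome-wide value (0.370, 0.806 and 1.10 tags in H3K27me3 and H3K27ac replicates 1 and 2) as multiples of 0.02, or 1 tag of 200 bp in 10 kb. This reading of the window, and of its tags as the library's own, rests on the values and on MACS2's known formulas, and no label states it.

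Lines that touched were merged, chrM was dropped, and the H3K27ac replicates were intersected in bp. Intervals and wide limits follow the report, where positions count from 1. Named intervals are the 10 widest, the 10 highest by mean level, the 5 with most summits, the 5 most isolated and 5 on each side of the width limit; below the top few they are given as ranges. The members and lists were chosen with earlier results of these data known. No test was run, since width, summits, level and spacing come from the same tags and there are 2 H3K27ac libraries. The 95% intervals of shares are exact (Clopper-Pearson) and hold counting error alone, as neighbouring intervals, and reads with no molecular identifiers, are dependent. Code was tested on simulated lines and intervals. The gene tables supplied are of another build and were not used. Alternatives changed the width limit, stitching gap, q limit, replicate overlap, H3K27me3 distance, sequences and replicates used. Figures used matplotlib 3.10.9; the rest used scipy 1.17.1, pandas 2.3.3 and numpy 2.4.6 in Python 3.11.15.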

Additional observations from a re-analysis of the deposited data

Results flagged for a closer look

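The mitochondrial genome, left out of every comparison here, held 4 called regions in each of the 3 lists. They were picked out because they are signal in a stretch that no comparison used.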

How the results depend on the processing

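The density ratio of wide over narrower intervals was 1.68 and turned below 1 only in the highest quintile of level (0.924), which like the margin and the joining of intervals under 1 kb apart was chosen after seeing the data. It was 1.47 at 750 bp, 2.16 at 1500 bp, 1.59 with a stitching gap of 5000 bp, 1.80 with 25000 bp, 1.34 with a −log10 q of at least 5, 1.59 with 50% reciprocal overlap and 1.5 in the highest quintile of margin. The pileup ratio (2.11) was 1.90 at 750 bp, 2.38 at 1500 bp, 1.42 with −log10 q of at least 5, 1.91 with 50% reciprocal overlap, 1.11 in the highest quintile of level and 1.35 by margin. The number of wide intervals (934) was 2744 at 750 bp and 38 at 1500 bp. Median summits (3.5) were 5.0 at 1500 bp and 2.5 with −log10 q of at least 5, a setting that drops weak summits. The lone share (56.3%) was 47.4% at 1500 bp, 83.1% with a gap of 5000 bp and 37.0% with 25000 bp. It was 71.7% with −log10 q of at least 5, 65.8% with 50% reciprocal overlap and 60.4% by margin. With intervals of groups joined by gaps under 1 kb taken as lone, it was 62.3%. From single lists (without H3K27ac replicate 2 or 1) the number ranged from 1294 to 2339, the pileup ratio from 2.73 to 3.82, the density ratio from 2.17 to 2.65 and the lone share from 41.0 to 44.0%; these lists also hold regions that the other replicate lacks. Removing chromosome 4 and unplaced scaffolds, or intervals with H3K27me3 within 5000 bp, kept the number within 1.5 times and the other 4 values within the replicate spread or exact interval. No paired test was run. The H3K27ac replicates were compared interval by interval as description only, and H3K27me3 has 1 replicate. Replicate 1, at 73.2% of the depth of replicate 2, had fewer wide regions. The part of depth in these widths was not tested, nor was the cause of the other shifts.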

Other observations

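Regions of at least 1000 bp were more common in the H3K27me3 list than in the H3K27ac lists, at 11.7% of its regions against 3.49 and 5.53%. By chromosome that H3K27me3 share was also highest on chromosome 2 (14.0% of 708 regions) and lowest on chromosome 22 (7.98% of 401), the 2 ends of the order for wide H3K27ac intervals. The top place was nearly a tie, since chromosome 8 had 13.9% of 696 regions. Over all 25 chromosomes the share of wide H3K27ac intervals and that H3K27me3 share had a Spearman rho of 0.40. Without those 2 chromosomes it was 0.23. With the share of regions of at least 1000 bp in each H3K27ac list instead, rho over all 25 was 0.25 for replicate 1 and 0.24 for replicate 2. The chromosomes share their libraries and sequence, and no p is given.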
